A study of Homo sapiens with 6 samples.

Results

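Polycomb repressive complex 2 (PRC2) and the enzymes that reverse its mark were examined at the transcript level in the SK-MEL-28 line, derived from a human cutaneous melanoma. A list of 10 genes was followed: the catalytic subunits EZH1 and EZH2, the core subunits EED and SUZ12, the histone chaperone RBBP4, the cofactors JARID2, MTF2 and PHF19, and the demethylases KDM6A and KDM6B. The genes were chosen by name, with earlier results of these data known, and were looked up by Ensembl ID without its version number. All 10 had a row in the deposited table of 13449 genes, so none was absent.

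The study transfected SK-MEL-28 cells with an siRNA against DANCR (3 libraries) or a non-targeting control siRNA (3 libraries) and sequenced poly(A) RNA. DANCR is a cytoplasmically enriched long noncoding RNA that has been reported to bind EZH2. SK-MEL-28 is a single cell line, and the depletion was transient and carried out with Lipofectamine. The table holds 1 value per gene for use here, the authors' mean normalised count over all 6 libraries. Values for the siDANCR and control libraries apart were not analysed here, so no level below is a difference between the groups, and no spread between libraries can be attached to it.

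PRC2 places methyl groups on lysine 27 of histone H3 (H3K27), a mark of repressed chromatin at developmental genes. EZH2 or its paralog EZH1 carries the methyltransferase domain, which works only together with EED, which binds the finished mark, and SUZ12, the scaffold of the complex. Cofactors sort PRC2 into variant forms: MTF2 and PHF19 belong to PRC2.1, and JARID2 to PRC2.2. KDM6A (UTX) and KDM6B (JMJD3) remove the mark, and KDM6A is also a subunit of the KMT2C and KMT2D enhancer complexes. In dividing cells EZH2 is known as a target of E2F factors, whereas EZH1 is known as the form kept by resting cells.

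The sequences below show a feature that the choice of genes did not use, an E2F-type motif near the transcription start. The motif was taken as TTTCCCGC, TTTCGCGC, TTTGCCGC or TTTGGCGC on either strand and was searched from 250 bases before to 50 bases after each annotated start (RefSeq, GRCh38.p14). All 10 genes matched a promoter entry, and 5 of the 10 held the motif in at least 1 window. The same motif was present in 3.32% of all 35116 windows, and in 6.78% of the 9806 genes of the table that had a window. Each match is shown with its motif in capitals, 5′ to 3′ on the strand of the gene.
EZH2, chr7:148884272-148884301, minus strand: gggctgccgcgTTTGGCGCtcggtccggtc
EZH1, chr17:42745137-42745166, minus strand: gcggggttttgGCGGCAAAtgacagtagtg
SUZ12, chr17:31936807-31936836, plus strand: cgacccctaatTTTCCCGCgaattcagttc
MTF2, chr1:93079277-93079306, plus strand: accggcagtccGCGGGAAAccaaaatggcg
PHF19, chr9:120877322-120877351, minus strand: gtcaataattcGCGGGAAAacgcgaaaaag

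The EZH2 match began 1 base after the first transcribed base and the MTF2 match 5 bases after it. The others lay upstream, 115 bases before the start in EZH1, 152 in PHF19 and 189 in SUZ12. PHF19 and EZH2 have 2 windows each, with the match in 1 of them. The promoters of EED, RBBP4, JARID2, KDM6A and KDM6B held none of the 4 motifs in these windows, which says nothing of E2F binding elsewhere. Of related lists, the motif was present in 1 of 18 PRC1 genes, 1 of 8 PR-DUB genes, 1 of 4 other PRC2 genes and 0 of 4 KMT2C and KMT2D complex genes with a window. The motif was picked after expression levels were seen, and no test of these shares was made. A match is a string of letters, not a bound site, and these data contain no measurement of binding. The windows were also rich in CpG, with a median over the 10 genes of 35 CpG in the richest window against 29 over genes of the table. The related lists had medians from 36 to 39.5, so the PRC2 list did not exceed them. EED had the fewest of the 10, with 16.

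Defining markers of the labelled cell type were abundant in the table. Of 12 melanocytic lineage genes, 11 had a row, with a median of 284.4 ppm on the length-scaled measure explained below, and TYRP1 had none. PMEL, a melanosome matrix protein, averaged 24524 normalised counts and the neural crest factor SOX10 averaged 19731. Of 20 epithelial, haematopoietic, endothelial and fibroblast markers, 5 had a row, the most abundant being the proteoglycan LUM at 645.3 normalised counts. The means of the table sum to 15059759, and range from 23.1 to 617311 with a median of 322.5. A gene without a row may have fallen below the lowest mean kept. It may also be among the 288 genes of the table whose IDs matched no name, so a missing row does not show that a gene is silent. DANCR averaged 425.9 normalised counts and 14 ppm over libraries of both groups, 1.38-fold above EZH2 per canonical length. The DANCR level rests on a canonical transcript of 3959 bases, and no other length was tried for it. EZH2 itself ran from 3.05 to 43.8 ppm with the length used, so this ratio is not secure. The DANCR mean mixes depleted and control cells, so it is the level of neither group.

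The 10 genes were expressed at moderate levels that spanned 14-fold. PHF19 had the highest mean and EED the lowest. Of the 10, 7 lay above the median of the table in normalised counts. Together all 10 made up 0.0466% of the normalised counts of the table. Normalised counts grow with transcript length, so levels of different genes were compared per length. Each mean was divided by the length of the canonical transcript and scaled so that all genes sum to 1000000 (ppm). On this scale the median of the 10 was 10.7 ppm, at percentile 40.4 of all genes, against a median of 14.5 ppm over all genes, and 4 of the 10 lay above that median.

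**Figure D1:**
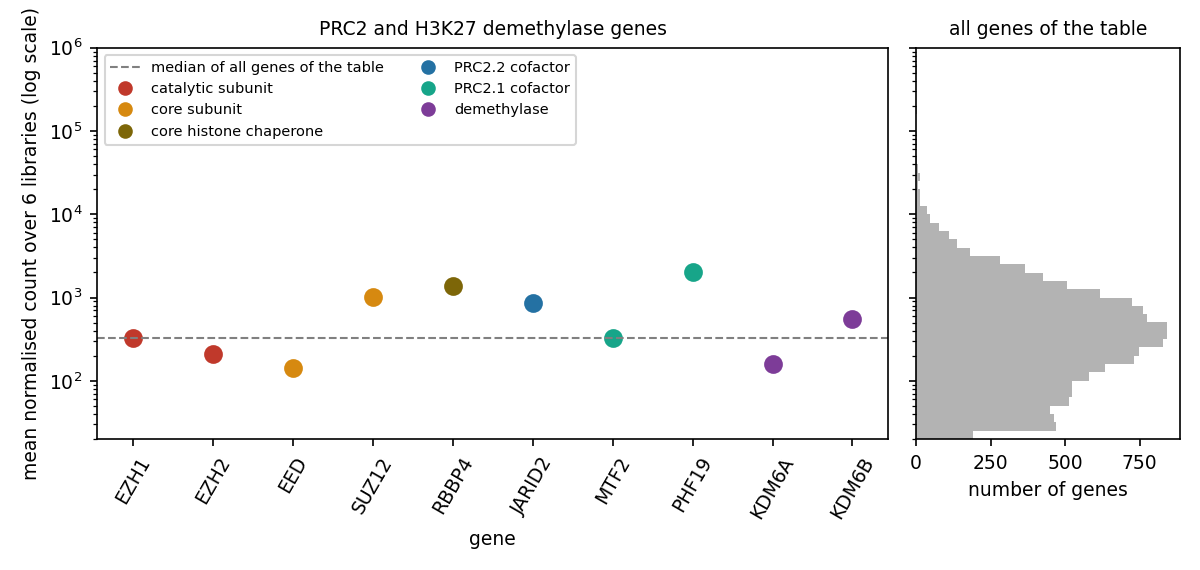
Mean normalised count over the 6 libraries (log axis) for each of the 10 genes, coloured by role, beside the distribution of all 13449 genes. Points are the authors' means and carry no error bars. PHF19, RBBP4, SUZ12, JARID2 and KDM6B lie clearly above the median of 322.5 (dashed), EZH1 and MTF2 close to it, and EZH2, KDM6A and EED below it.

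With canonical lengths both catalytic subunits lay below the median of all genes, EZH2 at percentile 39.2 and EZH1 at percentile 36.7 per length. EZH2 (ENSG00000106462.6, chr7:148504349-148581413, minus strand, GRCh37) averaged 207.6 normalised counts, at percentile 38.7 of the means of the table. EZH1 (ENSG00000108799.8, chr17:40852293-40897067, minus strand) averaged 330.3 normalised counts, at percentile 50.7 of the means. Thus EZH1 gave 1.59-fold more normalised counts than EZH2. The canonical EZH1 transcript, at 4633 bases, is longer than that of EZH2, at 2654 bases. Per length the pair was nearly level, with 10.2 ppm for EZH2 and 9.30 ppm for EZH1, a ratio of 1.1. This order is not secure: with the union of all annotated exons as the length EZH1 stood 2.45-fold above EZH2, and with the median protein-coding transcript the EZH2 to EZH1 ratio was 0.590. With the number of 150-base windows that lie inside 1 exon in place of the length, a measure taken up below, EZH2 stood at 43.8 ppm and at 4.19 times EZH1.

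Of the core subunits, SUZ12 was the higher and EED the lower. SUZ12 (ENSG00000178691.6, chr17:30264026-30328057, plus strand) averaged 1017 normalised counts and 29.5 ppm. EED (ENSG00000074266.13, chr11:85912254-85989855, plus strand) averaged 144.3 normalised counts and 9.02 ppm. SUZ12 was therefore 3.27-fold above EED per length and 7.05-fold above it in normalised counts, and 1.83-fold above it with the 150-base windows. Summed, EED and SUZ12 reached 1.98 times the level of EZH1 and EZH2 per length, with SUZ12 supplying most of it. This ratio turned to 0.769 with the 150-base windows. These are ratios of RNA, and protein amounts in the complex were not measured.

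RBBP4 (ENSG00000162521.14, chr1:33116743-33151812, plus strand), which also serves other chromatin complexes, averaged 1382 normalised counts and 22.9 ppm. Its paralog RBBP7, which can take its place in PRC2, averaged 946.1 normalised counts and 54.1 ppm, 2.37-fold above RBBP4 per length. The longest exon of RBBP4 holds 6572 of the 7883 bases of its canonical transcript. With the median protein-coding transcript, of 882 bases, the RBBP4 level became 143.7 ppm. It was 23.1 ppm with the union of exons and 15.7 ppm with the 150-base windows. No level with another length is given here for RBBP7, so this contrast is not secure. The values for RBBP4 and SUZ12 may also depend on how reads from near-identical copies were assigned. The sources used here leave that step undescribed. Of all 50-base stretches of the SUZ12 transcript, 9.29% also occur in the pseudogene SUZ12P1, which had a mean of 95.8 normalised counts. A share of 6.75% occurs in ENSG00000290928, which had no row. For RBBP4 the share was 3.60% with RBBP4P1, at 220.4 normalised counts, and 2.53% with RBBP4P2, at 55.2 normalised counts. Of the RBBP4 transcript 27.4% overlaps exons of SYNC on the opposite strand, which had no row, and 10.6% of EED overlaps an antisense lncRNA, also without a row. EZH2 shared 1.38% of its stretches with EZH2P1, and KDM6A shared 0.480% with UTY, neither of which had a row. EZH1, JARID2, MTF2, PHF19 and KDM6B shared no 50-base stretch with transcripts of any other gene.

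Among the cofactors, PHF19, a Tudor domain protein that reads methylated H3K36, stood out. PHF19 (ENSG00000119403.9, chr9:123617929-123657174, minus strand) averaged 2020 normalised counts and 63.5 ppm, at percentile 86.8 per length, 2.15-fold above SUZ12, the next of the 10. MTF2 (ENSG00000143033.13, chr1:93544792-93604636, plus strand), its paralog in PRC2.1, averaged 327.1 normalised counts and 10.5 ppm. The PHF19 to MTF2 ratio was 6.07 per length, 6.18 in normalised counts and 5.53 with the union of exons, but 28.3 with the median protein-coding transcript, which for PHF19 has 862 bases. PHF19 was thus the higher under each of these, while the size of the ratio depended on the length. Their paralog PHF1 was the lowest of these PRC2.1 genes, at 102.2 normalised counts and 5.90 ppm. JARID2 (ENSG00000008083.9, chr6:15246300-15522273, plus strand), which tethers PRC2.2 to ubiquitinated nucleosomes, averaged 867.2 normalised counts and 18.9 ppm. With canonical lengths it stood 1.33-fold above its PRC2.2 partner AEBP2 at 14.1 ppm. This order is not secure, as JARID2 ran from 13.7 to 22.0 ppm with the length used and other lengths were not computed for AEBP2. Of the 6 further PRC2 genes examined, EPOP, a PRC2.1 cofactor, and EZHIP, an inhibitor of EZH2, had no row, and LCOR, whose locus encodes a PRC2.1 cofactor, had 7.22 ppm.

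The demethylases lay in the middle and at the bottom of the range per length. KDM6B (ENSG00000132510.6, chr17:7737535-7758114, plus strand) averaged 559.7 normalised counts and 10.9 ppm. KDM6A (ENSG00000147050.10, chrX:44732434-44972024, plus strand) averaged 159.3 normalised counts and 3.41 ppm, the lowest of the 10 per length and at percentile 14.7 of all genes. The KDM6A to KDM6B ratio was 0.314 per length and 0.285 in normalised counts, and KDM6A was below KDM6B with each of the other lengths tried and with no length correction. Per canonical length KDM6A was below the 8 measured members, of 9 listed, of the KMT2C and KMT2D complexes, whose levels ran from 6.76 to 30.7 ppm. In normalised counts it lay above DPY30, at 128.8.

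**Figure D2:**
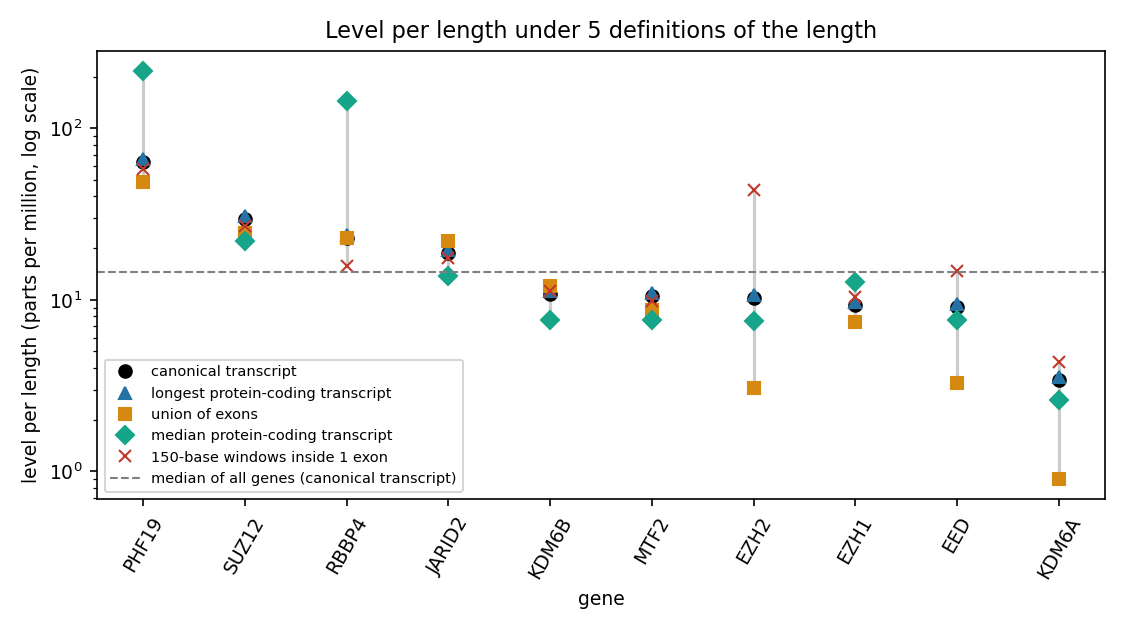
Level per length (ppm, log axis) of the 10 genes in order of their canonical-transcript level, with each symbol standing for a definition of the length and grey lines joining the lowest and highest. PHF19 is first and KDM6A last under all 5 definitions, whereas EZH2 ranges from 3.05 ppm with the union of exons to 43.8 ppm with 150-base windows inside 1 exon.

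Between these ends, the full order of 5 genes was not secure. KDM6B, MTF2, EZH2, EZH1 and EED lay from 10.9 down to 9.02 ppm, within 1.20-fold of each other, and their order changed with the length used. Under the 4 annotated lengths PHF19 was always first, SUZ12 and RBBP4 exchanged the second and the third place, JARID2 always came next and KDM6A always last. Over these 4 lengths RBBP4 moved most, by 6.28-fold between its lowest and highest value, followed by PHF19 with 4.44-fold, KDM6A with 3.91-fold and EZH2 with 3.49-fold. With the 150-base windows added EZH2 moved most, by 14.4-fold, followed by RBBP4 with 9.16-fold. SUZ12 moved least under the 4 lengths and under all 5 definitions, by 1.40-fold.

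The exon structure of the transcripts was described beside these levels. The submitters' processing notes name an aligner, Bowtie, that does not split reads over introns, and the reads were 150 bases long, so the share of 150-base windows that lie whole inside 1 exon was computed for each canonical transcript. EZH2 had the lowest share of the 10, 13.9%, as 15 of its 20 exons are shorter than 150 bases and the longest has 324 bases. EED followed with 37.1%. RBBP4 had the highest, 83.5%, and PHF19, SUZ12, JARID2 and MTF2 lay between 61.9% and 63.8%. Across the 10 genes the level per length and this share were positively related (Spearman's rho = 0.867, n = 10 genes measured in the same libraries), whereas across 11210 multi-exon protein-coding genes rho was −0.0506. When those genes were split into 5 equal bins of the share, genes in the lowest bin had a median of 13.6 ppm, against 17.7 ppm in the next bin and 11.2 ppm in the highest. With these windows in place of length, EZH2 stood at 43.8 ppm and in the second place, 4.19 times EZH1. The windows stand for single reads of 150 bases, whereas the libraries were read in pairs and trimmed. Whether reads across exon junctions were lost in these libraries was not tested.

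**Figure D3:**
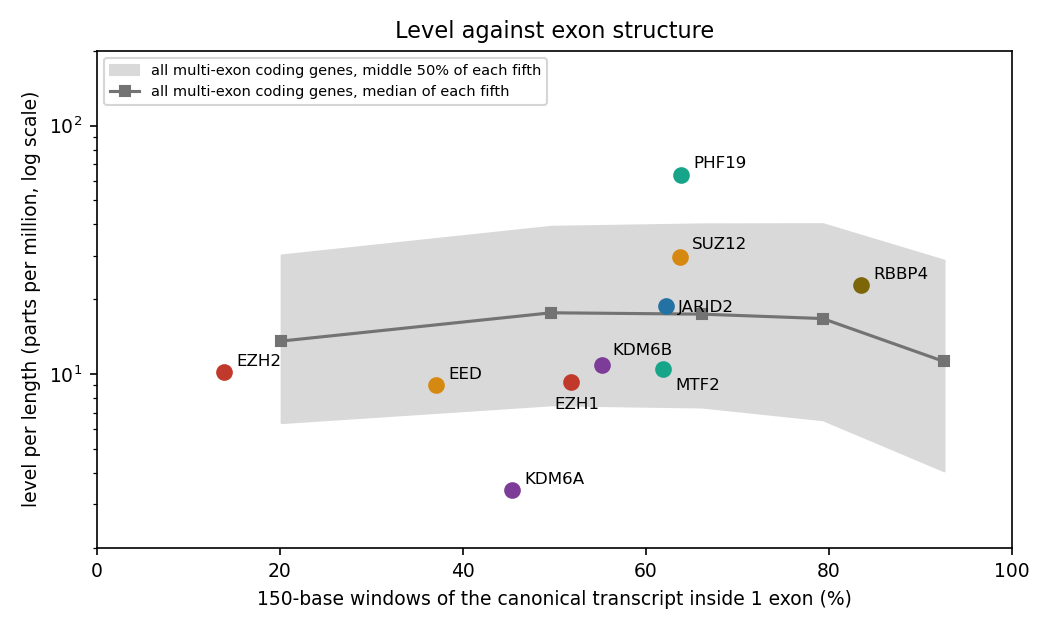
Level per length (ppm, log axis) against the percentage of 150-base windows inside 1 exon, for the 10 genes, each labelled. Squares and the grey band give the median and the middle 50% of 11210 multi-exon coding genes in 5 equal bins of that percentage, drawn at the middle of each range. EZH2 and EED lie in the lowest bin, PHF19 lies above the band and KDM6A below it.

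Other Polycomb and H3K27 genes put these levels in context. Of 24 PRC1 genes, which compact chromatin and ubiquitinate histone H2A, 21 had a row, with a median of 16.9 ppm, and 15 of them lay above the median of all genes. The chromobox gene CBX6 at 129.2 ppm and RYBP at 80.5 ppm exceeded every gene of the PRC2 list, and RING1, PCGF2 and SCML2 had no row. The PR-DUB deubiquitinase, which removes the PRC1 mark, had 10 of 11 genes with a row and a median of 35.1 ppm. HCFC1 led with 82.3 ppm, followed by FOXK2 and FOXK1 at 41.4 ppm each, and ASXL3 had no row. The KMT2C and KMT2D complexes had a median of 17.1 ppm, led by WDR5 at 30.7 ppm, ASH2L at 29.4 ppm and DPY30 at 24.4 ppm, and PAGR1 had no row. The acetyltransferases EP300 and CREBBP, which acetylate H3K27 and so compete with PRC2, had 35.2 and 16.9 ppm. The median of the PRC2 and demethylase list, 10.7 ppm, lay below the medians of all of these and was near that of the 4 further PRC2 genes, 10.7 ppm. No test of these differences between lists was made.

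**Figure D4:**
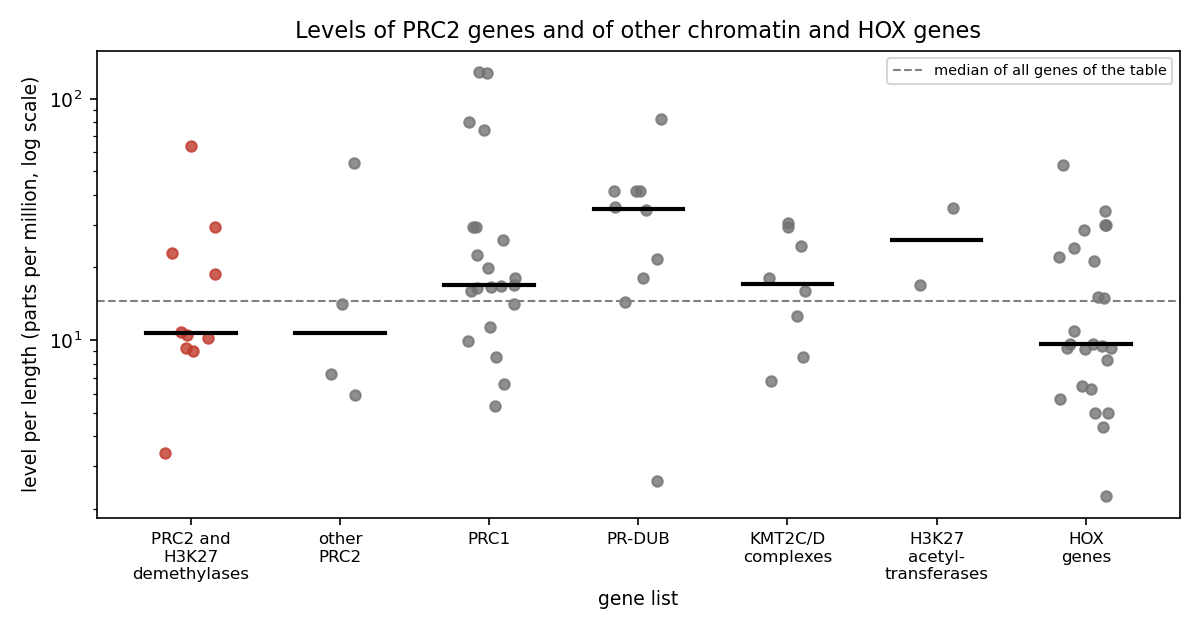
Level per length (ppm, log axis) of the 10 PRC2 and demethylase genes, leftmost, and of genes in 6 other lists, 1 point per gene with a row. Black bars are medians and the dashed line is the median of all genes, 14.5 ppm. The PR-DUB list has the highest median, 35.1 ppm, and the HOX genes the lowest, 9.61 ppm.

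HOX genes, developmental regulators that PRC2 is known to repress in many cell types, were partly present. Of 39 genes, 25 had a row, with a median of 9.61 ppm, 10 of them lay above the median of all genes, and 14 had no row. HOXB2 at 53.4 ppm, HOXC10 at 34.3 ppm and HOXB6 at 30.0 ppm had the highest levels per length. Their H3K27 methylation was not measured in this experiment. A gene without a row may be silent, below the lowest mean kept, or among the 288 genes whose IDs matched no name.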

How the data were processed

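RNA was sequenced from 6 SK-MEL-28 cultures described as prepared in triplicate, 3 transfected with siDANCR and 3 with a control siRNA. Libraries were poly(A)-selected, strand-marked with dUTP and read as paired 150-base reads. Per the submitters' processing notes, the authors used Trim Galore 0.4.4, Bowtie 1.1.2, hg19 and DESeq2. Annotation, counting tool, DESeq2 version and use of strand: not given in the sources used here. The deposited table gives, as the only signal used, the authors' mean normalised count of each gene over all 6 libraries. Its other columns, the authors' log2 fold change, standard error, Wald statistic, p-value and adjusted p-value for siDANCR against control, were not used, nor was a sheet holding a subset of rows. Without values per library, no comparison of the groups, no test, no error and no interval could be computed, and depth per library is unknown here.

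Ensembl IDs without version were matched to GENCODE 44 lifted to GRCh37, which gave 13161 of 13449 genes a name and a length, and the other 288 were left out of levels per length. Each mean was divided by the length of the canonical transcript and scaled to 1000000. Shared sequence was counted as 50-base stretches found in transcripts of another gene. Promoter windows came from RefSeq (GRCh38.p14). Alternative lengths, no length correction, protein-coding genes only and a minimum mean of 100 were tried. All 10 genes are described, with DANCR, paralogs and pseudogenes, and for each other list the number with a row and the 3 highest genes per length, with absent genes named where there were 5 or fewer. An item that this rule would name is not reported here. The genes and lists were chosen with earlier results of these data known, and the E2F motif and the exon windows were chosen after the levels were seen. The tools were numpy 2.4.6, pandas 2.3.3 and matplotlib 3.10.9 under Python 3.11.15. The functions that count windows inside exons, the union of exons and shared stretches were tested on small typed or random inputs. The other steps were not part of these tests.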

Additional observations from a re-analysis of the deposited data

How the results depend on the processing

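The EZH2 to EZH1 ratio, 1.1 with canonical lengths, turned to 0.408 with the union of exons, 0.590 with the median protein-coding transcript and 0.629 with no length correction, and was 4.19 with 150-base windows inside 1 exon, an alternative chosen after seeing the data. The KDM6A to KDM6B ratio, 0.314, was 0.0759, 0.341, 0.285 and 0.383 in the same order, always below 1. The ratio of EED and SUZ12 to EZH1 and EZH2, 1.98, was 2.64, 1.47, 2.16 and 0.769, so it turned with the windows. The percentile of the median of the 10 genes, 40.4, was 42.9 with the longest protein-coding transcript, 48.2 with the union of exons, 38.3 with the median transcript, 58.8 with no length correction, 49.9 with the windows, 38.8 among protein-coding genes and 25.9 when a minimum mean of 100 was required. The longest protein-coding transcript left the 3 ratios at their values. Older symbols left the number of genes found at 10, but current symbols had already found all 10. They were not tried for the other lists, where genes without a row occur. No paired analysis was possible because the table used here holds 1 mean over all libraries. For the same reason the edgeR and DESeq2 fits and leaving out each replicate were not run. A pooled mean gives no spread between cultures, so small differences between genes could not be weighed against it.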
